A study of Homo sapiens with 21 samples.

Results

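The inhibitor of DNA binding family comprises ID1, ID2, ID3 and ID4, and these 4 genes were followed among the 12165 genes tested on the arrays. They were chosen by their family symbols, with their log2 intensity by cell line and hairpin in view, so their levels and changes are given as a description without a test. All 4 were on the array, on 8 probe sets (sets of short probes that read 1 transcript), of which 2 are annotated both to ID2 and to its pseudogene ID2B. Gene expression was measured in MOLM-14, U937 and HL-60, established human leukaemia lines. MOLM-14 is a monocytic line with an internal tandem duplication in FLT3, HL-60 is promyelocytic, and U937 is monocytic and was derived from a histiocytic lymphoma. Each line was infected with a short hairpin RNA against the tyrosine kinase SYK, either shSYK_1 or shSYK_2 (2 arrays each per line), or with shLuc, a control hairpin against luciferase (3 arrays per line). All 9 groups, shLuc included, were infected, put under puromycin at 1 µg/ml from 48 h and harvested for total RNA at day 5. According to the labels the cells were transduced in triplicate or duplicate, so the spread given is that between transductions of 1 line.

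ID proteins carry the helix-loop-helix domain of the basic helix-loop-helix (bHLH) transcription factors but lack the basic region that contacts DNA. They pair with the E proteins, encoded by TCF3 (E2A), TCF4 (E2-2) and TCF12 (HEB), and keep them off their E-box sites. ID1, ID2 and ID3 are classic targets of bone morphogenetic protein (BMP) signalling through SMAD factors, and in blood cells ID1 is known as a gene induced by oncogenic tyrosine kinases, while ID2 is known for its role in natural killer, innate lymphoid and dendritic cells.

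The sequences of the hairpins and of the upstream regions of ID1 and ID2 are shown first. ID2 was above the median of every array, and ID1 was above it in the U937 groups and in MOLM-14 with shLuc, while ID3 and ID4 were below it throughout. The target sites of the hairpins in SYK (chromosome 9), as the labels give them, are these.
shSYK_1: gcagcagaacagacatgtcaa
shSYK_2: gcaggccatcatcagtcagaa
In the RefSeq annotation of GRCh38.p14, ID1 lies at chr20:31605289-31606510, ID2 at chr2:8682056-8684461, ID3 at chr1:23557926-23559501 and ID4 at chr6:19837370-19842197. The 250 bases before the start of ID1 (chr20:31605039-31605288) and of ID2 (chr2:8681806-8682055), both on the plus strand, are shown from RefSeq with motif matches in capitals.
ID1: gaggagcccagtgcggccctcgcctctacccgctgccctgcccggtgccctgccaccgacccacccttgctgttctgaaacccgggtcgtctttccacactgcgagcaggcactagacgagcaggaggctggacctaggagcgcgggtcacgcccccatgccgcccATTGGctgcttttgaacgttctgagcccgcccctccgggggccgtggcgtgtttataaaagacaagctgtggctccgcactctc
ID2: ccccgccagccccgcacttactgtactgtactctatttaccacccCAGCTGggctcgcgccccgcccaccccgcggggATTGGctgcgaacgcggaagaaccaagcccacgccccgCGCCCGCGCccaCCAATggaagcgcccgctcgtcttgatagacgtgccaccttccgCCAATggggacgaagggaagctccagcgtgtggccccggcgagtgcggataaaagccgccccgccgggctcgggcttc
The motifs searched, on both strands of the 300 bases from 250 before to 50 after the start, were an EGR motif (GCGNGGGCG), a GC-rich SMAD motif (GGCGCC), the E-box (CANNTG), a STAT motif (TTCNNNGAA), the core of the CRE (TGACG) and the CCAAT box (CCAAT). The ID1 window held 1 CCAAT box, on the minus strand, and 0 matches to the other 5 motifs. The ID2 window held 3 CCAAT boxes, 1 E-box (CAGCTG) and 1 EGR match on the minus strand (CGCCCGCGC). Of 35116 RefSeq windows of this length, 34.61% held a CCAAT box, 68.68% an E-box and 9.434% the EGR motif. The SMAD motif was in 19.22% of them, the STAT motif in 7.657% and the CRE core in 24.55%. The ID3 window held 1 STAT match and 1 CRE core, and the ID4 window 3 EGR matches, 1 E-box and 1 CCAAT box. A match describes the letters of the window and does not show a bound site.

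The targeted gene, SYK, was lower with both hairpins: its average log2 change was -2.62 for MOLM-14, -1.91 for U937 and -2.09 for HL-60, and no SYK hairpin array overlapped the shLuc arrays of its line. Values are RMA intensities, a linear scale on which the medians of the arrays ran from 18.4 to 20.6. RMA gives no detection call and compresses differences, most of all at low intensity. The marker levels given here are geometric means over all arrays of a line, SYK hairpins included. The neutrophil elastase gene ELANE was high in all 3 lines (3491 for MOLM-14, 5448 for U937 and 3105 for HL-60). Myeloperoxidase (MPO) was at 5754 in HL-60, 51.0 in MOLM-14 and 10.1 in U937, the last below every array median. On 1 array, HL-60 shSYK_2 replicate 1, the title and treatment label give shSYK_2 and the source label gives shSYK_1. It was kept as shSYK_2, and over all genes its deviation from the HL-60 mean correlated at 0.22 with the other shSYK_2 array and at -0.34 and -0.16 with the shSYK_1 arrays. Its upper quartile of intensity was 122.3, against 134.49 to 139.77 on the other arrays.

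ID1 was lower with both SYK hairpins in MOLM-14 and U937 and was not lower in HL-60. In MOLM-14 its intensity was 13.4 and 7.78 with shSYK_1 and 9.84 and 11.3 with shSYK_2, against 32.6, 21.6 and 32.4 with shLuc. All 4 SYK hairpin arrays lay below the lowest shLuc array. The change was -1.47 log2 with shSYK_1 and -1.43 with shSYK_2 (within-line SD 0.37, 2 arrays against 3), and the shSYK_1 value ran from -1.86 to -1.08 when 1 array was left out. With SYK lowered ID1 was dim in MOLM-14 (26.8% to 43.8% of probe sets dimmer), so the size of the change depends on the scale: the average over both hairpins was -1.45 on log2 values and -0.75 with log2(value + 16).

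In U937, ID1 intensity was 37.9 and 41.6 with shSYK_1 and 27.0 and 32.7 with shSYK_2, against 62.4, 79.6 and 85.0 with shLuc. Again all 4 SYK hairpin arrays lay below all shLuc arrays, and both shSYK_2 arrays lay below both shSYK_1 arrays. The change was -0.92 log2 with shSYK_1 and -1.34 with shSYK_2 (within-line SD 0.20), 45.8% of the shLuc intensity was left on average, and 8 of 12165 genes had a lower average change. Of all genes, 8.66% were below shLuc on all 4 SYK hairpin arrays in MOLM-14 and 7.92% in U937. Both hairpin comparisons in a line share the same shLuc arrays.

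In HL-60, ID1 intensity was 10.3 and 8.37 with shSYK_1 and 10.2 and 11.9 with shSYK_2, against 8.95, 8.22 and 7.98 with shLuc. Both shSYK_2 arrays lay above all shLuc arrays, as 20.8% of genes did, and the shSYK_1 arrays overlapped them. The change was 0.15 log2 with shSYK_1 and 0.40 with shSYK_2 (within-line SD 0.14), and the shSYK_1 value was -0.00074 without shSYK_1 replicate 1 and 0.29 without shSYK_1 replicate 2. Between 26.7% and 31.8% of all probe sets were dimmer than ID1 on the HL-60 shLuc arrays, so a decrease there was hardly detectable.

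With the control hairpin the lines themselves differed in ID1. With shLuc, MOLM-14 differed from U937 by -1.40 log2, which makes ID1 2.65-fold higher in U937. In HL-60 ID1 was too dim for a fold to be read against it. No shLuc array of 1 line overlapped those of another, as was so for 59.2%, 57.4% and 59.8% of genes in these pairs of lines. Over the 9 groups the mean log2 intensity ran from U937 shLuc (6.23 ± 0.24, SD, n = 3) to U937 shSYK_1 (5.31 ± 0.095, n = 2), U937 shSYK_2 (4.89 ± 0.19, n = 2) and MOLM-14 shLuc (4.83 ± 0.34, n = 3). U937 with shSYK_2 and MOLM-14 with shLuc overlapped. The other 5 groups lay between 3.07 (HL-60 shLuc) and 3.47 (HL-60 shSYK_2), and each overlapped its neighbour in the order. With SYK lowered, ID1 in MOLM-14 (7.78 to 13.4) overlapped HL-60 (7.98 to 11.9 over its 3 groups), while in U937 it stayed above the lowest MOLM-14 control array.

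**Figure D1:**
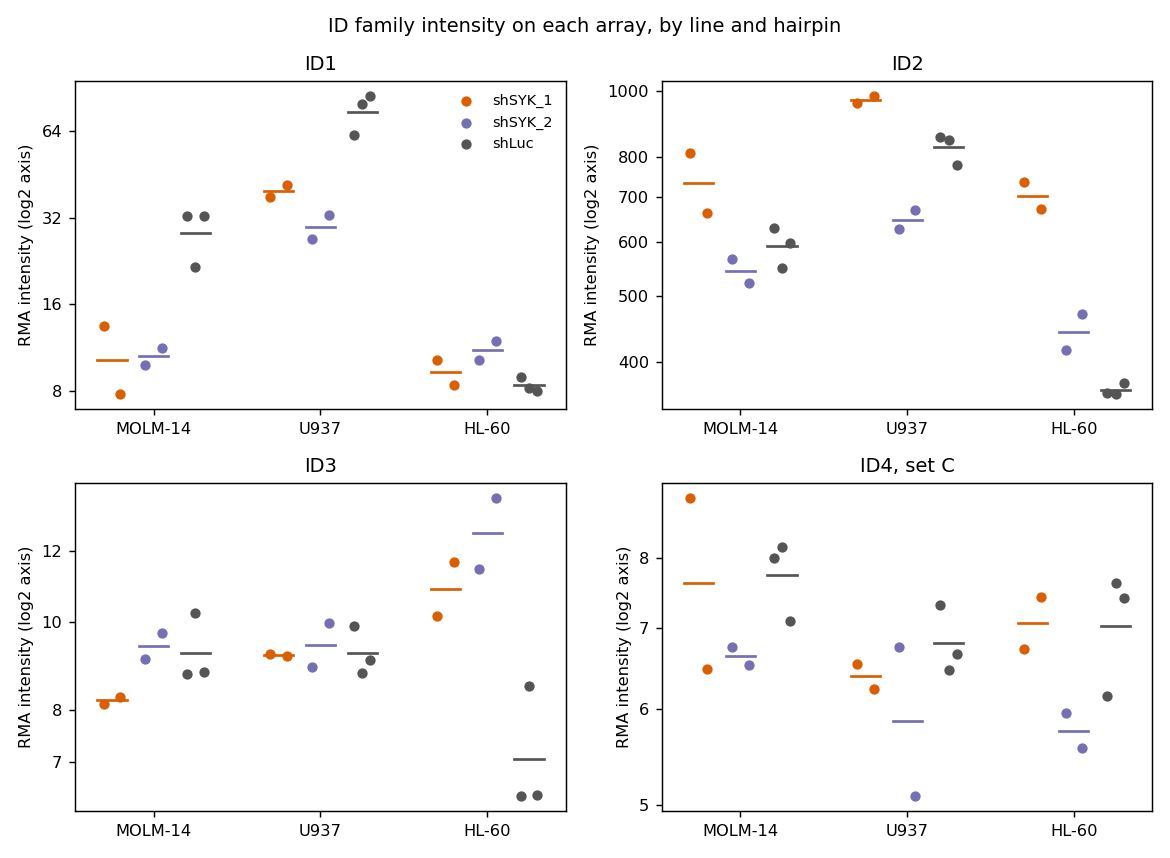
RMA intensity of ID1, ID2, ID3 and ID4 (set C, the brightest of its probe sets) on each of the 21 arrays (log2 axes, 1 point per array, bars at the geometric mean of the group), by cell line and hairpin. In MOLM-14 and U937 every SYK hairpin array has less ID1 than the shLuc arrays. ID2 is higher with shSYK_1 than with shSYK_2 in each line, and ID3 and ID4 have no array above 13.75.

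ID2 was the brightest member, with 87.1% to 94.7% of probe sets dimmer on every array, and in U937 it was higher with shSYK_1 and lower with shSYK_2. In MOLM-14 its intensity was 812.5 and 663 with shSYK_1 and 568 and 523 with shSYK_2, against 629, 551 and 600 with shLuc. The shSYK_1 arrays lay above all shLuc arrays, as 24.9% of genes did, and the shSYK_2 arrays overlapped them. In U937 it was 960 and 985 with shSYK_1 and 627 and 669 with shSYK_2, against 856, 850 and 778 with shLuc. Here both shSYK_1 arrays lay above all shLuc arrays (21.9% of genes) and both shSYK_2 arrays below them (22.3% of genes).

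For HL-60, ID2 intensity was 735 and 671 with shSYK_1 and 417 and 471 with shSYK_2, against 361, 359 and 373 with shLuc. All 4 SYK hairpin arrays lay above the shLuc arrays, as 10.4% of genes did. The change was 0.95 log2 (1.93-fold) with shSYK_1 and 0.28 with shSYK_2 (within-line SD 0.080), and 218 of 12165 genes had a higher change with shSYK_1. In MOLM-14 the changes were 0.31 and -0.12 (within-line SD 0.13), the first being 0.16 without shSYK_1 replicate 1 and 0.46 without shSYK_1 replicate 2, and in U937 0.23 and -0.35 (within-line SD 0.064). The shSYK_2 change in HL-60 was 0.37 without shSYK_2 replicate 1 and 0.20 without shSYK_2 replicate 2.

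The hairpins separated ID2 in the same order in the 3 lines: both shSYK_2 arrays lay below both shSYK_1 arrays in each, with log2 differences of -0.43 (MOLM-14), -0.59 (U937) and -0.66 (HL-60). Line by line 29%, 28.6% and 25.2% of genes were below, 8.78% were so in all 3 lines, and 7.82% lay above shLuc with shSYK_1 in all 3 lines, as ID2 did. The HL-60 difference was -0.33 with the array of conflicting labels placed in shSYK_1. SYK itself was lower with shSYK_2 than with shSYK_1 in MOLM-14 (-0.67 log2, SE 0.09, limma adjusted p = 2.6e-05) and U937 (-0.44, SE 0.09, limma adjusted p = 0.0015), and the HL-60 difference of -0.24 did not pass (limma adjusted p = 0.072). ID1 showed no common order of the hairpins, with shSYK_2 minus shSYK_1 at 0.04 log2 (MOLM-14), -0.42 (U937) and 0.25 (HL-60), and the arrays of the hairpins overlapped in MOLM-14 and HL-60 but not in U937. The sign of the MOLM-14 difference depended on single arrays, at 0.44 without shSYK_1 replicate 1, -0.35 without shSYK_1 replicate 2 and -0.06 without shSYK_2 replicate 2, and the HL-60 difference was 0.40 without shSYK_1 replicate 1 of that line and 0.11 without shSYK_1 replicate 2.

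With the control hairpin ID2 was highest in U937 and lowest in HL-60. MOLM-14 differed from U937 by -0.48 log2 and from HL-60 by 0.70 log2, and U937 was 2.27-fold above HL-60, with no overlap of arrays. For these pairs of lines 59.2%, 57.4% and 59.8% of all genes had no overlap either. The highest group mean was that of U937 with shSYK_1 (9.93 ± 0.025 log2, n = 2) and the lowest that of HL-60 with shLuc (8.51 ± 0.030 log2, n = 3). In the order of the 9 groups U937 shLuc, MOLM-14 shSYK_1 and HL-60 shSYK_1 overlapped as neighbours, as did U937 shSYK_2, MOLM-14 shLuc and MOLM-14 shSYK_2. With shSYK_1, ID2 in HL-60 thus reached the range of the other lines. Over the 21 arrays the highest ID2 value was 2.74 times the lowest.

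The probe sets annotated to both ID2 and ID2B, here called set A and set B, partly followed the ID2 set, and ID2 and its pseudogene cannot be told apart on them. On set A the log2 change with shSYK_1 was 0.24 (MOLM-14), 0.31 (U937) and 1.02 (HL-60), and with shSYK_2 it was 0.07, -0.10 and 0.15. On set B it was 0.59, 0.00 and 0.59 with shSYK_1 and 0.40, -0.27 and 0.26 with shSYK_2. On set A, as on the ID2 set, shSYK_2 arrays lay below shSYK_1 arrays in each of the 3 lines, while on set B they overlapped in U937. The lines stood in another order on set B, where shLuc intensity was highest in HL-60 (134.9 to 144.6), against 75.2 to 91.5 in MOLM-14 and 72.7 to 86.8 in U937. With the shLuc mean of the line subtracted, the ID2 set correlated across the 21 arrays at r = 0.88 with set A and 0.63 with set B, and at 0.36 with ID1. The set annotated to ID2B alone stayed between 6.50 and 10.04 on all arrays.

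ID3 was dim in every group and higher with both SYK hairpins in HL-60. Its HL-60 intensity was 10.2 and 11.7 with shSYK_1 and 11.5 and 13.7 with shSYK_2, against 6.43, 8.50 and 6.44 with shLuc. All 4 SYK hairpin arrays lay above the shLuc arrays, as 10.4% of genes did. The log2 change was 0.62 with shSYK_1 and 0.83 with shSYK_2 (within-line SD 0.20). The average over both hairpins was 0.73, and 0.26 with log2(value + 16). In MOLM-14 it was 8.13 and 8.28 with shSYK_1 and 9.11 and 9.74 with shSYK_2, against 8.77, 10.3 and 8.80 with shLuc, and the shSYK_1 arrays lay below shLuc by -0.17 log2, as 23.6% of genes did. In U937 it was 9.23 and 9.18 with shSYK_1 and 8.92 and 9.99 with shSYK_2, against 9.91, 8.79 and 9.09 with shLuc. The averages over both hairpins were -0.07 and 0.01 log2, and in U937 all groups overlapped. Between 15.8% and 44.4% of probe sets were dimmer than ID3 on the 21 arrays, so its HL-60 values lay within the dim range.

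ID4 was the dimmest member. Its probe sets A, B and C ran from 5.08 to 6.90, from 3.97 to 4.98 and from 5.09 to 8.96 over the 21 arrays, and on set B between 0.249% and 4.54% of all probe sets were dimmer. Across the 3 probe sets the log2 changes with a SYK hairpin ran from -0.29 to 0.13. The probe sets gave different directions in HL-60, where the shSYK_2 change was 0.13 on set A, 0.08 on set B and -0.29 on set C.

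**Figure D2:**
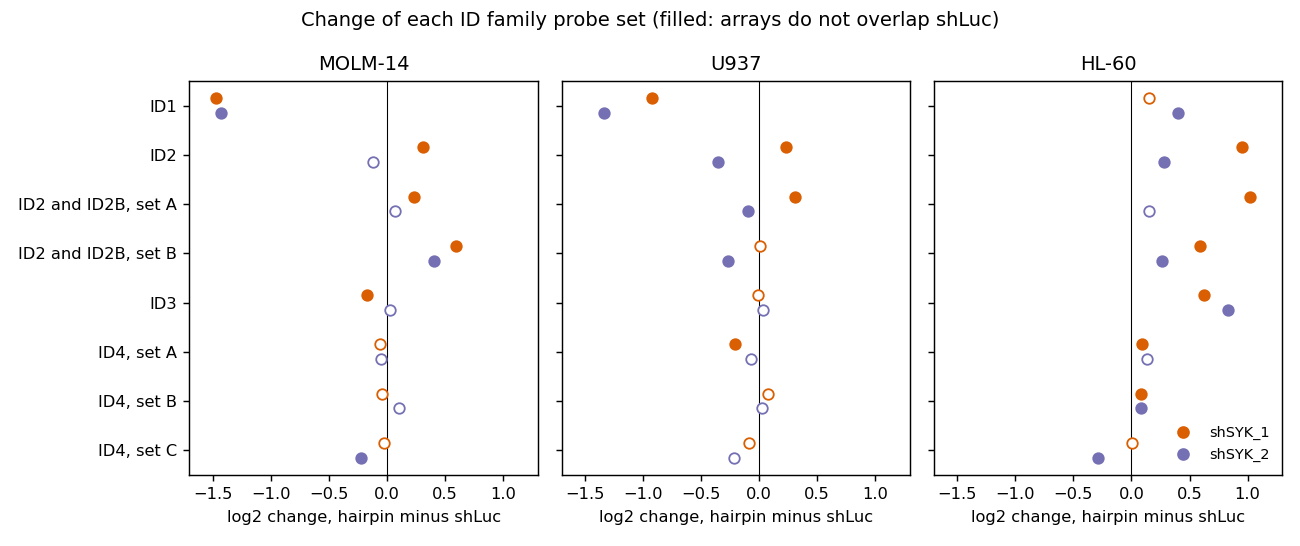
Difference in mean log2 intensity between each SYK hairpin (2 arrays) and shLuc (3 arrays) on the ID family probe sets, by cell line; filled points mark hairpin arrays that do not overlap the shLuc arrays. With both hairpins ID1 lies between -1.47 and -0.92 in MOLM-14 and U937, and the ID2 point of shSYK_1 is right of that of shSYK_2 in each line.

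The genes whose pattern was most like that of ID1 and ID2 were found by Pearson correlation over the 21 arrays, after subtraction of the shLuc mean of the line, as a description in which arrays of 1 group share their treatment. For ID1 the highest were REEP4 (r = 0.90), LMNB1 (0.87), DEK (0.87), IMPA2 (0.84) and RUNX3 (0.84). LMNB1 encodes lamin B1 of the nuclear lamina, DEK a chromatin protein and RUNX3 a transcription factor of the RUNX family. The lowest were ATP8B4 (-0.92), RAB4A (-0.87) and BTG1 (-0.87), the last an antiproliferative gene. Without subtraction, so that the lines themselves count, IDH2 (0.92), EXOSC10 (0.91) and MYBL1 (0.91) stood highest. For ID2 the highest were APOBEC3B (0.95), MCUB (0.95), SHC1 (0.92), MAP3K5 (0.92) and ITGA5 (0.91), and the lowest SLC39A14 (-0.94), HSPBAP1 (-0.92) and SLC33A1 (-0.91). APOBEC3B encodes a cytidine deaminase, SHC1 an adaptor of tyrosine kinase signalling and ITGA5 an integrin subunit of the fibronectin receptor. Without subtraction MAP3K5 (0.93), ANXA2P2 (0.92) and ANXA2 (0.91) stood highest for ID2. ANXA2 and its pseudogene ANXA2P2 can share signal, and their average log2 changes in HL-60 were 2.24 and 1.42.

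The E proteins, the binding partners of the ID family, were tested with limma and Benjamini-Hochberg adjustment over all 12165 genes. The text says that a gene rose or fell where its adjusted p was below 0.05. Averaged over both hairpins, E protein genes fell in each line: TCF3 and TCF12 in MOLM-14, TCF4 and TCF12 in U937, and 3 of 3 in HL-60, and 0 rose. Among all genes 9.49%, 7.58% and 13.1% fell in these lines. The median log2 change of the 3 genes was -0.25, -0.33 and -0.56, against 0.015, -0.0032 and -0.00062 over all genes.

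TCF12, which encodes HEB, fell with shSYK_1, and its changes with shSYK_2 did not pass. Of all genes 25.5%, 16.9% and 24.3% passed with shSYK_1 in MOLM-14, U937 and HL-60. In the same order of lines 16.6%, 16.2% and 21.5% passed with shSYK_2, and 25.9%, 23% and 22.2% between the hairpins. In MOLM-14 its intensity was 169 and 172 with shSYK_1 and 378 and 385 with shSYK_2, against 345, 318 and 325 with shLuc. In U937 it was 288 and 274 with shSYK_1 and 501 and 494 with shSYK_2, against 482, 461 and 470 with shLuc. In HL-60 it was 316 and 267 with shSYK_1 and 483 and 546 with shSYK_2, against 530, 589 and 594 with shLuc. In the 3 lines the shSYK_1 arrays thus stood apart below all others.

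The TCF12 log2 change with shSYK_1 was -0.95 in MOLM-14 (SE 0.08, limma adjusted p = 2.0e-07), -0.75 in U937 (limma adjusted p = 5.2e-06) and -0.97 in HL-60 (limma adjusted p = 1.2e-07). With shSYK_2 it was 0.22 (limma adjusted p = 0.077), 0.08 (0.60) and -0.15 (0.19). The hairpins differed, shSYK_2 minus shSYK_1, by 1.16 in MOLM-14 (limma adjusted p = 5.2e-08), 0.83 in U937 (2.7e-06) and 0.82 in HL-60 (5.4e-06). Averaged over both hairpins TCF12 changed by -0.37, -0.33 and -0.56 (limma adjusted p = 8.1e-04, 0.0024 and 9.9e-06), and a second, dim probe set gave 0 calls for this average. With the probe sets averaged, the call for both hairpins together was lost for MOLM-14 (limma adjusted p = 0.30 at -0.14) and likewise for U937 (0.17 at -0.19), while the shSYK_1 change still passed there (-0.47 and -0.37, limma adjusted p = 0.0022 and 0.016). With the array of conflicting labels placed in shSYK_1, the average no longer passed in any line (limma adjusted p = 0.077, 0.14 and 0.074), nor did the HL-60 difference between hairpins (0.66, limma adjusted p = 0.18).

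TCF4, which encodes E2-2, a factor of plasmacytoid dendritic cells, fell in HL-60 and U937. In HL-60 its intensity was 77.2 and 71.8 with shSYK_1 and 46.2 and 79.3 with shSYK_2, against 141, 138 and 139 with shLuc. The lowest value was on the array of conflicting labels, and all 4 SYK hairpin arrays lay below shLuc, as 11.6% of genes did. The average log2 change was -1.05 (SE 0.12, limma adjusted p = 7.3e-06) and ran from -1.25 to -0.86 when each array was left out. In U937 it was 164 and 158 with shSYK_1 and 145 and 143 with shSYK_2, against 204, 226 and 213 with shLuc, a change of -0.49 (limma adjusted p = 0.011) whose call was lost without U937 shLuc replicate 2 (limma adjusted p = 0.0515). In MOLM-14 TCF4 was dimmer than in the other lines with shLuc, and its change of -0.15 did not pass the test (limma adjusted p = 0.44). Of its 7 probe sets, 6 fell in U937 and 6 in HL-60, and 2 in MOLM-14.

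TCF3, the E2A gene, fell in HL-60 (-0.39 log2, SE 0.08, limma adjusted p = 0.0014) and MOLM-14 (-0.25, limma adjusted p = 0.033). In HL-60 its intensity was 262 and 317 with shSYK_1 and 267 and 310 with shSYK_2, against 388, 383 and 365 with shLuc. The groups did not overlap, and the hairpins gave the same change of -0.39. In MOLM-14 it was 550 and 501 with shSYK_1 and 608 and 635 with shSYK_2, against 708, 729 and 611 with shLuc, so that the shSYK_2 arrays overlapped shLuc. The MOLM-14 call was lost without any 1 of shLuc replicates 1 and 2, shSYK_1 replicate 2 and shSYK_2 replicates 1 and 2 (limma adjusted p up to 0.15), and with the arrays of the line alone (0.065). The U937 change of -0.18 did not pass (limma adjusted p = 0.17). Of 11 TCF3 probe sets 3 fell in MOLM-14 and also 3 in HL-60, with 2 in U937, and with their mean the HL-60 change of -0.13 did not pass (limma adjusted p = 0.065).

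**Figure D3:**
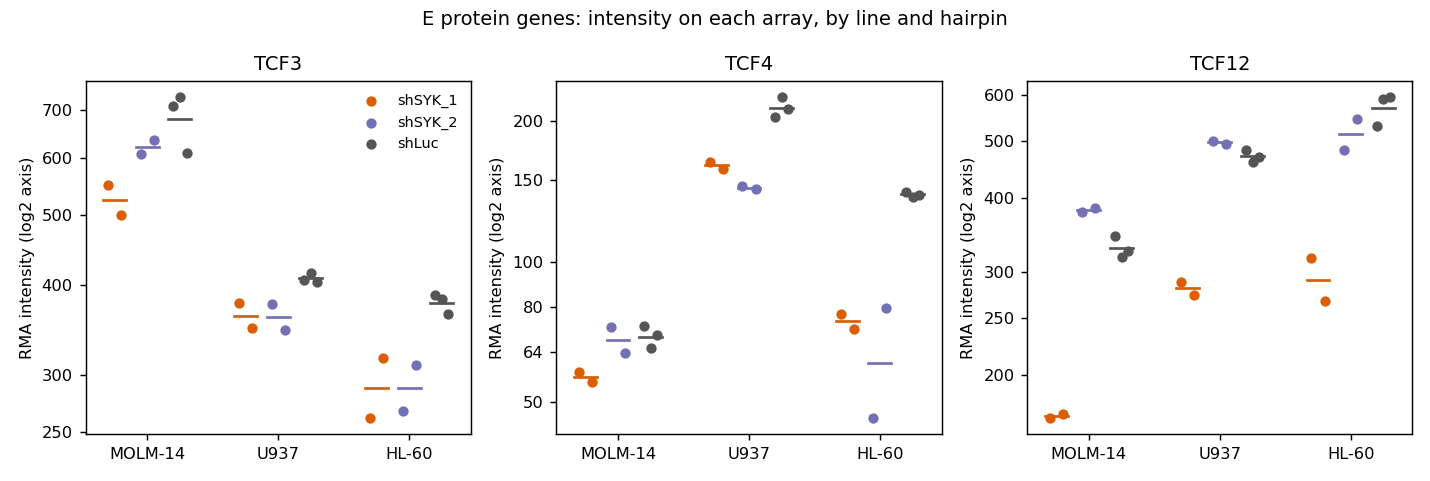
RMA intensity of TCF3, TCF4 and TCF12 on each of the 21 arrays (log2 axes, 1 point per array, bars at the geometric mean of the group), by cell line and hairpin. The TCF12 points with shSYK_1 lie below those with shSYK_2 and shLuc in the 3 lines, and the TCF4 and TCF3 points of both SYK hairpins lie below shLuc in HL-60.

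Around the ID family and the E proteins, 112 of 125 listed genes were measured, in 8 lists of bHLH partners, BMP and TGF-beta signalling, other reported regulators and reported targets. Averaged over both hairpins 20 passed the test in MOLM-14 (10 rose and 10 fell, 17.9%), 20 in U937 (9 and 11, 17.9%) and 33 in HL-60 (18 and 15, 29.5%). Of all genes 19.4% passed in MOLM-14 (9.92% rose), 14.7% in U937 (7.16% rose) and 24.4% in HL-60 (11.4% rose), so these shares were near the background.

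Among the tissue-specific bHLH factors, which dimerise with E proteins, 0 of 17 passed limma in MOLM-14 (2 at an unadjusted p below 0.05) and 1 of 17, the same gene, in U937 and HL-60. This was LYL1, a leukaemia-associated bHLH factor of blood progenitors, which fell in U937 (-0.48 log2, limma adjusted p = 1.0e-04) and HL-60 (-0.46, limma adjusted p = 7.8e-05) and was at -0.16 in MOLM-14 (0.10). With shSYK_1 it changed by -0.77 in U937 and -0.62 in HL-60, and with shSYK_2 the values were -0.18 (limma adjusted p = 0.14) and -0.30 (0.013). The difference between hairpins passed in U937 (limma adjusted p = 9.7e-05) and HL-60 (0.014). Of 7 HES, HEY and BHLHE repressors 0 passed limma in MOLM-14 (1 at an unadjusted p below 0.05), 1 rose in U937 and 2 rose in HL-60. BHLHE40, a bHLH repressor of the circadian and hypoxia responses, rose in U937 (0.27) and HL-60 (0.33, limma adjusted p = 0.0034), and its relative BHLHE41 rose in HL-60 (0.47, limma adjusted p = 0.0081). The U937 call of BHLHE40 was lost without any 1 of 4 U937 arrays, and its HL-60 call with the probe sets averaged (0.11, limma adjusted p = 0.33). Both calls were also lost with the array of conflicting labels placed in shSYK_1 (limma adjusted p = 0.15 for U937 and 0.11 for HL-60).

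Of the BMP and TGF-beta ligands and antagonists, 2 of 21 rose in MOLM-14, 0 of 21 passed limma in U937 (2 at an unadjusted p below 0.05), and in HL-60 1 rose and 2 fell. GDF11, a ligand of the activin type, fell in HL-60 by 0.81 on the log2 scale (limma adjusted p = 2.2e-05). This was so on 1 of its 2 probe sets, and the other was at 0.22. In HL-60 BMP4 also fell, by 0.28 on the log2 scale (limma adjusted p = 0.026), and INHBB, an activin subunit, rose (0.34, limma adjusted p = 0.0062). These 2 genes were below every array median in HL-60. BMP4 was at 7.62 to 10.2 with shLuc, 6.43 to 7.57 with shSYK_1 and 7.51 to 8.09 with shSYK_2. INHBB was at 5.48 to 7.04 with shLuc, 7.36 to 7.43 with shSYK_1 and 7.97 to 8.9 with shSYK_2. BMP7 rose in MOLM-14 by 0.39 (limma adjusted p = 0.0092), as did GDF15 (0.37, limma adjusted p = 0.028), which is named to complete the count after its value was seen. BMP7 was below every array median in MOLM-14, at 10.6 to 12.6 with shLuc and up to 17.0 with shSYK_1. The BMP7 call was lost without MOLM-14 shLuc replicate 1 (0.30, limma adjusted p = 0.064) and with the probe sets averaged (0.13, limma adjusted p = 0.20). BMP4 lost its call without any 1 of 4 HL-60 arrays, with the array of conflicting labels placed in shSYK_1 (limma adjusted p = 0.12) and with the arrays of the line alone (0.16), and the last setting also ended the INHBB call (0.062).

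Of 12 receptors measured, 3 rose and 1 fell in MOLM-14, 2 rose and 1 fell in U937, and 2 rose and 2 fell in HL-60. TGFBR2, the type II receptor for TGF-beta, rose in each line, by 0.40, 0.58 and 0.71 log2 (limma adjusted p = 6.7e-04, 3.1e-05 and 1.8e-06). This was so on 1 of its 2 TGFBR2 probe sets in each line, and the other was at 0.01, 0.26 and 0.07. In MOLM-14 the hairpins opposed each other: its intensity was 190 and 183 with shSYK_1 and 69.3 and 65.8 with shSYK_2, against 82.5, 87.4 and 84.8 with shLuc. The difference between hairpins there was -1.47 (limma adjusted p = 9.3e-09), with a rise of 1.14 with shSYK_1 (limma adjusted p = 6.1e-08) and a fall with shSYK_2 (-0.33, limma adjusted p = 0.013). ENG, the co-receptor endoglin, fell in MOLM-14 (-0.29, limma adjusted p = 0.012) and rose in HL-60 (0.49, limma adjusted p = 1.4e-04). The MOLM-14 call of ENG was lost without MOLM-14 shLuc replicate 3 (limma adjusted p = 0.062) and with the probe sets averaged (0.20). ACVR1B, an activin type I receptor, rose in MOLM-14 (0.46) and U937 (0.31), on 1 of its 6 probe sets in each, and both calls were lost with the probe sets averaged (limma adjusted p = 0.082 and 0.83). In HL-60 ACVR2B, an activin type II receptor, changed by -0.36 (limma adjusted p = 4.7e-04), a fall.

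Of 15 SMADs and SMAD regulators, 2 rose and 1 fell in MOLM-14 and in U937, and 2 rose and 3 fell in HL-60. SMAD3, which carries the TGF-beta and activin signal, rose in MOLM-14, where its intensity was 69.8 and 67.7 with shSYK_1 and 73.4 and 73.8 with shSYK_2, against 42.6, 43.9 and 45.8 with shLuc. All 4 SYK hairpin arrays lay above shLuc, as 10.2% of genes did. The log2 change was 0.69 (SE 0.08, limma adjusted p = 1.1e-05). Over the 4 SMAD3 probe sets it ran from 0.07 to 0.69, and 1 rose. SMAD3 also rose in U937 (0.28, limma adjusted p = 0.021) and was at -0.03 in HL-60 (limma adjusted p = 0.81). The U937 call was lost without any 1 of 4 U937 arrays and with the probe sets averaged (limma adjusted p = 0.055). SMAD7, the inhibitory SMAD that TGF-beta and BMP signals induce, rose in HL-60, with intensity 122.1 and 100.4 with shSYK_1 and 49.0 and 63.3 with shSYK_2, against 41.5, 42.1 and 40.8 with shLuc. The HL-60 change was 0.92 (SE 0.14, limma adjusted p = 1.5e-04). In MOLM-14 SMAD7 rose with shSYK_1 (0.79) and fell with shSYK_2 (-0.78, limma adjusted p = 0.0042), which averaged to 0.01. ZFYVE9 (SARA), an anchor for receptor SMADs, fell in MOLM-14 (-0.65) and HL-60 (-0.73), on 1 of its 2 probe sets in each. The other ZFYVE9 set was at -0.12 in MOLM-14 and 0.05 in HL-60. TGIF2, a SMAD corepressor, fell in HL-60 by 0.52 on the log2 scale averaged over both hairpins (limma adjusted p = 2.9e-04). Its HL-60 intensity was 37.6 and 32.6 with shSYK_1, against 63.7, 79.7 and 70.6 with shLuc. The shSYK_2 arrays, at 76.5 and 63.5, overlapped shLuc. The HL-60 call of TGIF2 was lost with the array of conflicting labels placed in shSYK_1 (-0.40, limma adjusted p = 0.23). Its U937 call (-0.28, limma adjusted p = 0.043) was lost there too (0.47), and without any 1 of 12 arrays. SMAD1, SMAD5 and SMAD9, the SMADs that BMP receptors activate, passed limma in 0 of the 3 lines, where the unadjusted p was 0.027 for SMAD5 in HL-60 (-0.32 log2) and above 0.05 for the other values.

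Of 15 other genes reported to regulate ID transcription, 2 rose and 4 fell in MOLM-14, 3 rose and 3 fell in U937, and 6 rose and 3 fell in HL-60. EGR1, an immediate early factor, fell on average in MOLM-14. Its MOLM-14 intensity was 309.6 and 83.2 with shSYK_1 and 30.9 and 36.2 with shSYK_2, against 737, 220 and 230 with shLuc. The arrays of 1 group spread widely, and the shSYK_1 arrays overlapped shLuc. The average log2 change was -2.19 (SE 0.40, limma adjusted p = 9.4e-04), with shSYK_2 at -3.32 (limma adjusted p = 1.4e-04) and shSYK_1 at -1.06 (0.13). In U937 it was 91.3 and 86.3 with shSYK_1 and 39.0 and 51.7 with shSYK_2, against 154, 106 and 97.6 with shLuc. All 4 SYK hairpin arrays lay below shLuc there, as 7.92% of genes did, but the change of -0.89 did not pass (limma adjusted p = 0.17). With the arrays of U937 alone the same change passed (limma adjusted p = 0.011). In HL-60 EGR1 was dim, as ID1 was.

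KLF4, a factor of monocytic differentiation, rose in each line, by 0.51, 0.46 and 1.20 log2 in MOLM-14, U937 and HL-60 (limma adjusted p = 0.0011, 0.0034 and 1.4e-07). Of its 2 probe sets 2 rose in HL-60 and 1 each in MOLM-14 and U937, where the other was at 0.30 and 0.19. FOXO3, a factor that AKT keeps out of the nucleus, fell in MOLM-14 (-0.51) and U937 (-0.53) and was at -0.21 in HL-60 (limma adjusted p = 0.080). CEBPB, a myeloid leucine zipper factor, rose in HL-60 (0.70, limma adjusted p = 2.3e-06). MYC, which is reported to regulate ID2, fell in the 3 lines (-0.53, -0.44 and -0.71), and was 0.31 to 0.78 log2 higher with shSYK_2 than with shSYK_1. FLT3, the receptor tyrosine kinase to which ID1 has been linked, fell with shSYK_1 in MOLM-14 (-0.84, limma adjusted p = 3.7e-04) and was at 0.14 with shSYK_2 (limma adjusted p = 0.60), a difference between hairpins of 0.98 (limma adjusted p = 1.9e-04).

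Of 22 genes reported as targets of E proteins or ID proteins, 1 rose and 2 fell in MOLM-14, 1 rose and 3 fell in U937, and 5 rose and 1 fell in HL-60. IGLL1, a surrogate light chain gene and a classic E2A target in B cell precursors, fell in U937, where its intensity was 10.2 and 8.50 with shSYK_1 and 14.8 and 14.02 with shSYK_2, against 96.7, 54.3 and 75.2 with shLuc. The log2 change was -2.66 (SE 0.24, limma adjusted p = 1.6e-06), and the B cell markers were dim in all groups (3 of 5 measured, 0 above the median gene, summed intensity 27.7 to 36.7). IL7R, the interleukin 7 receptor, fell in MOLM-14 (-1.42, limma adjusted p = 4.0e-06), with intensity 18.3 and 12.9 with shSYK_1 and 10.1 and 9.49 with shSYK_2, against 24.9, 36.3 and 39.1 with shLuc. CDKN1C, the cell cycle inhibitor p57, rose in HL-60 (0.65, limma adjusted p = 2.1e-05) on 5 of its 6 probe sets. GFI1, a myeloid repressor, fell in U937 (-0.27, limma adjusted p = 0.0020).

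**Figure D4:**
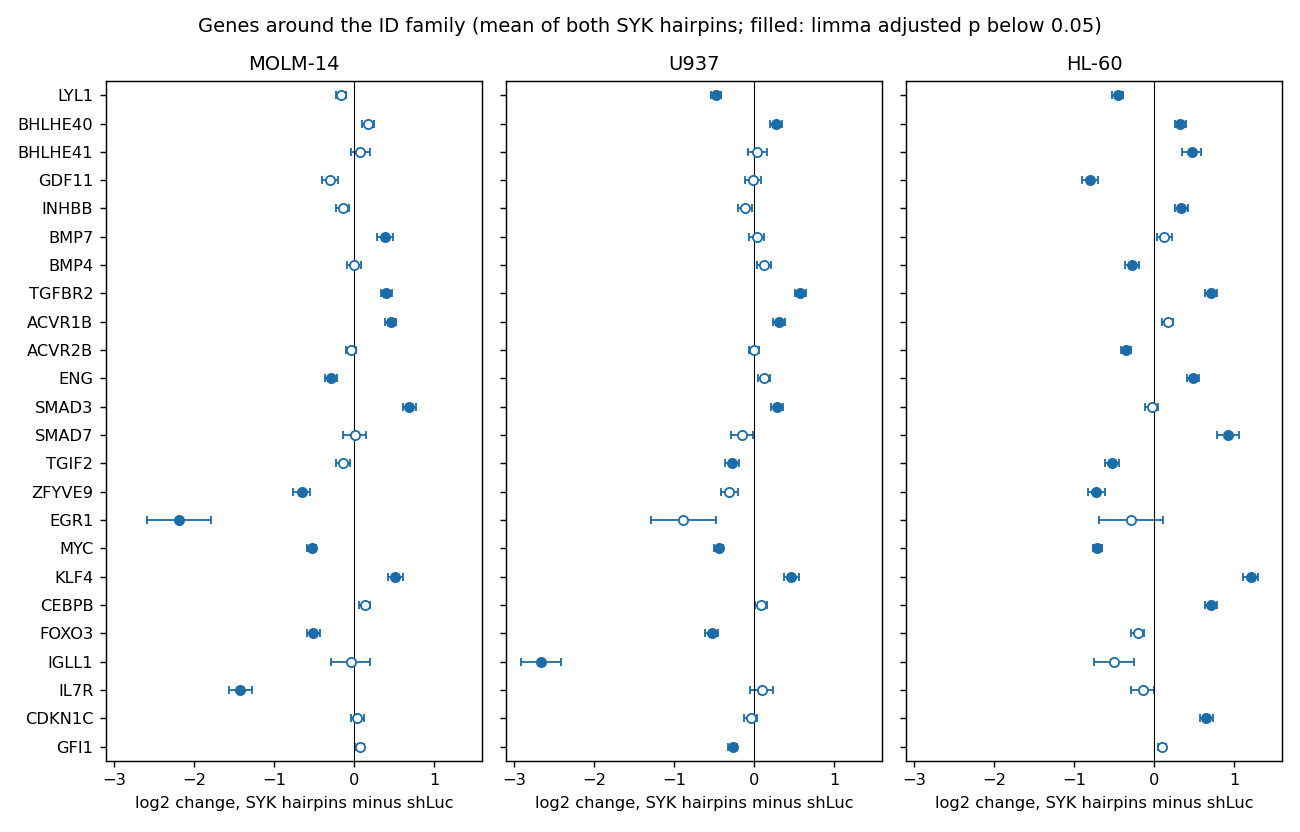
Average log2 change over both SYK hairpins (4 arrays) against shLuc (3 arrays) for the named genes around the ID family, by cell line; bars are standard errors of the limma fit and filled points passed at an adjusted p below 0.05. Furthest left are EGR1 (-2.19) and IL7R (-1.42) for MOLM-14 and IGLL1 (-2.66) for U937, and furthest right for HL-60 are KLF4 (1.20) and SMAD7 (0.92).

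Markers of other cells were checked beside these results. Erythroid and megakaryocyte markers (6 of 7 measured) had 0 genes above the median gene and a summed intensity of 64.8 to 102.8, the highest on an HL-60 shSYK_2 array. Of 9 T and NK cell markers 2 were above the median gene, CD4 and NKG7. NKG7 was highest in U937 (geometric mean 1223 over all its arrays). The geometric means of CD3D, CD3E and CD3G over the arrays of a line were below every array median. Of 7 epithelial and stromal markers at most 1 was above the median gene, KRT18 in MOLM-14. Of 8 measured myeloid markers 2 to 3 were above it in the MOLM-14 groups, 3 in U937 and 5 to 6 in HL-60. The summed intensity of 8 measured myeloid markers was 4030 to 4273 on SYK hairpin arrays of MOLM-14, against 3191 to 3508 with shLuc, 5279 to 5742 in U937, against 5745 to 5859 with shLuc, and 8551 to 9172 in HL-60, against 10083 to 10775 with shLuc. The sums did not overlap in any of the 3 lines, with the SYK hairpin arrays higher in MOLM-14 and lower in U937 and HL-60. A sum of linear intensities follows its brightest genes. Here these were ELANE in MOLM-14 and U937 (3491 and 5448 over all arrays), and MPO and ELANE in HL-60 (5754 and 3105). The sums thus do not describe the marker set as a whole. The part of these markers in the ID results was not tested. These are bulk samples of whole cultures, so fewer cells that express a gene and less RNA per cell cannot be told apart.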

How the data were processed

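RNA of 21 samples (3 lines, 9 groups) was measured on Affymetrix expression arrays. The deposited table gave each probe set an intensity from RMA, a tool that the submitters' processing notes name, whose version is not given in the sources used here. These intensities (3.23 to 13025) are linear, so log2 was taken without a pseudocount. Of 22277 probe sets, 62 controls, 1923 without a symbol and 568 with several symbols were left out of the tests. Each of the 12165 genes was read by its brightest probe set. Symbols came from the platform annotation, updated through RefSeq (GRCh38.p14).

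One model with a mean for each group was fitted over the 21 arrays (limma 3.58.1, R 4.3.3; 12 residual and 4.09 prior degrees of freedom), two-sided, with Benjamini-Hochberg adjustment over all genes and calls at 0.05. The fit was tested on simulated data. The precision is limited by 2 or 3 arrays a group. Motifs were counted with Python 3.11.15 and figures drawn with matplotlib 3.10.9. No test was made of the ID genes. The members and lists were chosen with earlier results of these data known. Named genes were the ID family, SYK, EGR1, FLT3, MYC, the E proteins and, of every other list, up to 4 called genes with the smallest p and 1 sign for both hairpins in a line. For ID1 and ID2 the 5 highest and 3 lowest correlated genes were added, and the 3 highest without subtraction of the line's shLuc mean. Alternatives were another scaling, a pseudocount of 16, the mean of probe sets, a filter leaving out the dimmest 40% of genes, other priors, the line's arrays alone, the replicate number as a block, the doubtful array moved or left out, and each array left out in turn.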

Additional observations from a re-analysis of the deposited data

Results flagged for a closer look

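Some changes pointed up on all arrays of 1 line and down on all arrays of another, relative to shLuc, and none of these differences was tested. With 1 hairpin in a line, 20.8% to 26.1% of all genes lay above shLuc and 20.7% to 24.6% below it. The share of genes with opposite directions in 2 lines was not counted. For ID1 with shSYK_2 the change in HL-60 exceeded that in MOLM-14 by 1.83 log2 and that in U937 by 1.74 log2. ID1 was dim in HL-60, and its shSYK_2 change there was 0.40 on log2 values and 0.15 with log2(value + 16). For ID2 with shSYK_2 the change in HL-60 exceeded that in U937 by 0.64 log2. For ID3 with shSYK_1 the change in HL-60 exceeded that in MOLM-14 by 0.80 log2, within the dim range of the arrays. On set B, a probe set annotated to both ID2 and ID2B, the shSYK_2 change in MOLM-14 exceeded that in U937 by 0.67 log2, and that in HL-60 exceeded U937 by 0.53 log2. On the dim ID4 probe set A the shSYK_1 change in HL-60 exceeded that in U937 by 0.30 log2.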

How the results depend on the processing

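The counts of genes called (2361 in MOLM-14, 1793 in U937, 2970 in HL-60) and of called genes around the ID family (20, 20 and 33) depended most on the array of conflicting labels. With it placed in HL-60 shSYK_1, 1121 genes were called in U937 and 1696 in HL-60, and 12 of the listed genes in U937. With the arrays of the line alone 1811 were called in HL-60. Leaving out each array in turn gave 1824 to 2692, 1286 to 2081 and 2411 to 3649 genes. With each array centred on its median, which moved the median change by at most -0.041 log2, 1110 of 3113 HL-60 calls were higher, against 1382 of 2970. With log2(value + 16), which shrinks dim genes by construction, the ID1 change was -0.75 for MOLM-14, -0.85 for U937 and 0.10 for HL-60, and the ID3 change in HL-60 was 0.26, against 0.73. Leaving out each array, the ID1 change on log2 values ran from -1.65 to -1.25, from -1.26 to -1.04 and from 0.20 to 0.35. The ID2 difference between hairpins ran from -0.58 to -0.28 in MOLM-14 and from -0.75 to -0.58 in HL-60, and was -0.33 there with the doubtful array placed in shSYK_1. Among the named genes, the doubtful array in shSYK_1 ended the calls of KLF4 in U937 (limma adjusted p = 0.055) and FLT3 in HL-60 (0.34), beside those of TCF12, BHLHE40, TGIF2 and BMP4 given above, and the FLT3 call was lost without HL-60 shLuc replicate 2 (0.051). The replicate numbers did not pair the arrays: over 18 same-numbered pairs deviations correlated at -0.21 to 0.092, and 0 exceeded 0.1. With the replicate block 2099, 1491 and 2649 genes were called, 18, 18 and 27 of the listed genes, and the ID1 change was -1.40, -1.08 and 0.32. The calls of BMP4 in HL-60 (limma adjusted p = 0.069) and TGIF2 in U937 (0.083) were lost with the block, and that of BMP4 with log2(value + 16) (0.052). Other changes, averaged over both hairpins, passed only outside the main fit. With the arrays of the line alone EGR1 passed in U937 (limma adjusted p = 0.011), and FLT3 and GDF11 in MOLM-14 (0.012 and 0.024). Their values in the main fit were 0.17, 0.056 and 0.051. At the dim end, where ID3, ID4 and ID1 in HL-60 lie, a decrease was hardly detectable.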
